A study of Mus musculus with 6 samples.

Results

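Knockdown of the linker histone gene H1f0 was compared directly with knockdown of the AP-1 gene Junb in mouse embryonic fibroblasts in which cardiac reprogramming had been switched on. The comparison holds the 4 libraries that the labels name siH1f0 (2) and siJunb (2), of 6 libraries in all, and every gene that passed a filter on low counts was tested. No control library enters the contrast, so a gene called higher in siH1f0 is higher there than in siJunb, whichever knockdown moved it. The remaining 2 libraries, siControl, are the reference, and their values are given beside the others where they place a gene. Over 13427 genes the siControl libraries differed from each other by a median absolute log2 ratio of 0.131, against 0.0577 for siJunb and 0.0592 for siH1f0, and the chi-square of counts per degree of freedom was 74.6, 3.8 and 3.85. The SD of the log2 ratio did not set that pair apart, at 0.312, 0.317 and 0.284. All 6 libraries came from 1 line, iMGT-Myh6-eGFP-MEF, in which doxycycline at 1 ug/mL induces the transcription factors Mef2c, Gata4 and Tbx5, and which is named for an eGFP reporter of Myh6, the gene of alpha-myosin heavy chain. The siControl cells therefore also received an siRNA and the induced trio, and no uninduced cells are among the groups. Cells were transfected the day before induction, and the labels describe biological replicates harvested on day 1. The series text speaks instead of day 3 and of sorted GFP-positive cells, and which account applies cannot be told from the sources used here. The siRNA sequences were not given in these sources.

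H1.0, the product of H1f0, belongs to the linker histones, which bind the nucleosome where DNA enters and leaves it and promote compact chromatin. It is the H1 variant that accumulates in cells that divide slowly or differentiate. JUNB is a subunit of AP-1, a dimer of JUN, FOS, ATF and MAF family proteins that binds the site TGANTCA and the closely related cyclic AMP response element. AP-1 occupies many enhancers of fibroblasts, and depleting AP-1 or certain chromatin proteins is a known route to easier conversion of fibroblasts into other cell types.

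Each library was checked for the gene its siRNA targets. H1f0 (gene 14958, protein-coding, chromosome 15, 79028212 to 79030504, GRCm38.p6) stood at 666 and 651 CPM (siJunb) against 51.6 and 54.4 CPM (siH1f0). Its mean was 12.4-fold lower in siH1f0, a log2 change of -3.63 ± 0.059 (SE, adjusted p = 1.11e-08). Junb (gene 16477, protein-coding, chromosome 8, 84976909 to 84978748) was at 10.7 and 8.89 CPM (siJunb) against 29.97 and 31.1 CPM (siH1f0), and its mean was 3.11-fold higher in siH1f0, a log2 change of 1.64 ± 0.093 (SE, adjusted p = 1.47e-05). In siControl, H1f0 was at 798 and 742 CPM and Junb at 39.1 and 35.7 CPM. Each pair of libraries thus had its own target at the lowest level of the 3 groups, with no overlap between groups, and the mean left was 53.03 ± 2.00 CPM beside 770 ± 39.5 CPM in siControl for H1f0, and 9.78 ± 1.26 beside 37.4 ± 2.40 CPM for Junb (SD, n = 2 each). CPM are counts relative to the library total, adjusted between libraries by TMM, and log2 changes are siH1f0 minus siJunb throughout unless siControl is named.

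The differences between the knockdowns were many and mostly small. Of 13427 genes tested, 3484 passed at a Benjamini-Hochberg adjusted p under 0.05 in edgeR's quasi-likelihood test, which is 25.9%, with 1637 higher in siH1f0 (12.2%) and 1847 lower (13.8%). Among those called, 81.5% differed by less than 1.5-fold. At 1.5-fold or more, 341 genes were higher (2.54% of those tested) and 305 lower (2.27%). At 2-fold or more the counts were 109 and 100, and at 4-fold or more 23 and 18. The median log2 change over all genes tested was 0.000715, with a 10th percentile of -0.344 and a 90th of 0.424. With libraries scaled by total counts only, 2222 genes were called higher and 1340 lower, so that 62.4% of calls were higher instead of 47.0%, and the median of all genes moved to 0.0507. The siH1f0 and siJunb libraries of a gene did not overlap for 9629 genes (71.7% of those tested), so separation alone was common. Against siControl, 2209 genes (16.5%) were called in siJunb and 879 (6.55%) in siH1f0, comparisons that share the siControl libraries with each other and 1 knockdown each with the direct one.

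**Figure D1:**
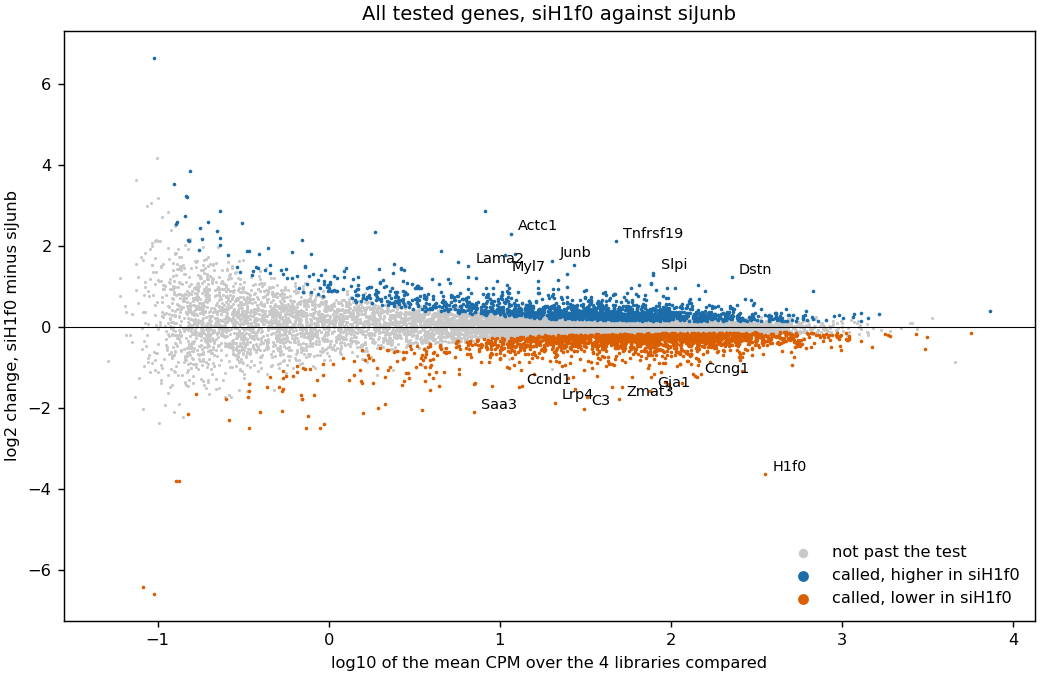
Each point is 1 of 13427 genes, with log10 of its mean CPM over the 4 libraries on the x axis and its log2 change, siH1f0 minus siJunb, on the y axis. Genes called higher in siH1f0 (1637) and lower (1847) form bands around 0. H1f0 at -3.63 is the lowest of the labelled genes, and the spread of the points widens at low CPM.

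The 4 libraries separated by knockdown. On the first principal component of the 4 libraries (62.6% of the variance) siH1f0 and siJunb lay apart, and the second carried 20.9%. Library totals ran from 48690447 counts (siJunb 2) to 65746378 (siH1f0 2) among the 4. The fit also uses the siControl pair for its estimate of spread. Without siControl 1 it called 6435 genes, without siControl 2 6434, and with the 4 compared libraries alone 6416. Without 1 compared library fewer genes passed. There were 1311 calls with siJunb 1 left out and 1325 with siJunb 2 left out, against 1304 and 1333 for siH1f0 1 and siH1f0 2. In all, 1029 genes (440 higher, 589 lower, 29.5% of those called) passed whichever of the 6 libraries was left out. Counts in brackets after a gene list give the range of calls in that list when 1 of the 4 compared libraries was left out, and leaving out a siControl library gave as many calls or more in most lists. Fits without 1 compared library called 1304 to 1333 of 13727 to 13767 genes. In the main fit 12.2% of all genes tested were called higher and 13.8% lower, the shares to set beside each list. Genes named below belong to these 1029 unless the text says that a call was lost. With 2 libraries a group, an exact permutation test of 1 gene cannot go below p = 0.333 (two-sided), so every call rests on spread shared across genes.

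The genes with the largest differences included several of heart muscle. Ranked among called genes with a mean of at least 5 CPM over the 4 libraries and an established symbol, the highest was Actc1 (chromosome 2, 114047282 to 114052875), the cardiac alpha-actin gene. It was at 3.79 and 4.02 CPM (siJunb) against 18.4 and 20.01 CPM (siH1f0), a log2 change of 2.30 ± 0.10 (SE, adjusted p = 4.42e-06), while siControl held 22.2 and 19.7 CPM. The siJunb libraries thus lay below siControl and the siH1f0 libraries near it. Tnfrsf19 (chromosome 14, 60963834 to 61046855), a receptor of the TNF receptor superfamily, was at 17.99 and 18.1 CPM (siJunb) against 80.98 and 74.6 CPM (siH1f0), a log2 change of 2.11 ± 0.062 (SE, adjusted p = 1.04e-06). Its siControl libraries, at 50.9 and 50.3 CPM, fell between those of the knockdowns, with both differences from siControl past the test (log2 differences of -1.49 in siJunb and 0.62 in siH1f0, adjusted p = 7.86e-06 and 0.000626). Myl7, the atrial myosin regulatory light chain, was at 4.89 and 4.75 CPM (siJunb) against 17.05 and 15.9 CPM (siH1f0). Its log2 change of 1.77 ± 0.11 (SE, adjusted p = 2.39e-05) again came with groups that did not overlap, and siControl, at 16.2 and 13.5 CPM, stood near siH1f0.

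Further genes high in siH1f0 relative to siJunb were of varied function. Xrcc5 encodes Ku80, which holds broken DNA ends for joining, and was at 13.9 and 14 CPM (siJunb) against 38.3 and 41.8 CPM (siH1f0), a log2 change of 1.52 ± 0.070 (SE, adjusted p = 5.56e-06). Dstn encodes destrin, which severs actin filaments, and was at 134 and 138 CPM (siJunb) against 316 and 318 CPM (siH1f0), a log2 change of 1.23 ± 0.045 (SE, adjusted p = 3e-06). Golga7, a partner of a protein palmitoyltransferase at the Golgi, was at 44.8 and 47.4 CPM (siJunb) against 112 and 112 CPM (siH1f0), with a log2 change of 1.28 ± 0.053 (SE, adjusted p = 3.05e-06). For these 3 genes siControl stood with siH1f0, at 36.9 and 39.03 CPM for Xrcc5, 295 and 289 for Dstn and 115 and 112 for Golga7. The log2 differences of siH1f0 from siControl were 0.08, 0.12 and -0.02 (adjusted p = 0.52, 0.153 and 0.843), none past the test. Sertad4 was arranged likewise, at 13.7 and 14.7 CPM (siJunb) against 35.1 and 35.5 CPM (siH1f0), with siControl at 29.4 and 31.4 CPM. Slpi, a secreted inhibitor of leukocyte proteases, was arranged otherwise. It was at 44.5 and 45.4 CPM (siJunb) against 115 and 111 CPM (siH1f0), a log2 change of 1.33 ± 0.066 (SE, adjusted p = 9.02e-06), and siControl at 49.03 and 43.6 CPM overlapped siJunb, so that the siH1f0 libraries stood alone. Lama2, the laminin alpha2 chain, was at 3.15 and 3.70 CPM (siJunb) against 9.45 and 9.76 CPM (siH1f0), with siControl between them at 4.41 and 5.25 CPM and a log2 change of 1.49 ± 0.13 (SE, adjusted p = 0.000141).

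The genes lowest in siH1f0 relative to siJunb, after H1f0 itself, included Saa3, C3, Gla and Ptx3. C3, the central complement component (chromosome 17, 57203967 to 57228136), was at 50.8 and 49.4 CPM (siJunb) against 13.3 and 11.3 CPM (siH1f0), a log2 change of -2.03 ± 0.082 (SE, adjusted p = 3e-06). The siControl libraries, at 13.7 and 14.2 CPM, stood near siH1f0, and siJunb alone was high (log2 difference 1.85 from siControl, adjusted p = 1.02e-05). Saa3, an acute-phase serum amyloid, was at 10.5 and 12.4 CPM (siJunb) against 2.56 and 2.74 CPM (siH1f0), a log2 change of -2.10 ± 0.13 (SE, adjusted p = 2.26e-05). Ptx3, a long pentraxin of innate immunity, was at 65.4 and 67.4 CPM (siJunb) against 23.3 and 24.1 CPM (siH1f0), a log2 change of -1.48 ± 0.072 (SE, adjusted p = 7.61e-06). For both of these siControl lay between the knockdowns, at 8.31 and 7.44 and 41.4 and 36.4 CPM. Gla encodes the lysosomal alpha-galactosidase A (chromosome X, 134588169 to 134601005) and was at 50.5 and 49.4 CPM (siJunb) against 14.6 and 15.4 CPM (siH1f0), with siControl again between at 33.01 and 30.8 CPM and a log2 change of -1.73 ± 0.066 (SE, adjusted p = 3e-06). Its differences from siControl went in opposite directions, 0.65 in siJunb and -1.08 in siH1f0, both past the test (adjusted p = 0.000512 and 6.74e-05).

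Gja1 encodes connexin 43, the main gap junction protein of working heart muscle and also abundant in fibroblasts. It was at 111 and 116 CPM (siJunb) against 38.98 and 37.4 CPM (siH1f0) with siControl at 98.5 and 108 CPM, so that the siH1f0 libraries alone were low, a log2 change of -1.57 ± 0.062 (SE, adjusted p = 3e-06). Sulf2, an extracellular enzyme that trims sulfate from heparan chains, was at 41.9 and 39.9 CPM (siJunb) against 14.5 and 13.8 CPM (siH1f0), and Mt2, a metal-binding metallothionein, at 77.9 and 75.05 CPM (siJunb) against 26.2 and 28.5 CPM (siH1f0). Their log2 changes were -1.53 and -1.48 (adjusted p = 1.21e-05 and 1.22e-05). Nr4a3, an orphan nuclear receptor induced by many stimuli, was at 13.3 and 13.2 CPM (siJunb) against 4.34 and 5.30 CPM (siH1f0), a log2 change of -1.46 ± 0.11 (SE, adjusted p = 6.57e-05). The siControl libraries lay between the knockdowns for these 3 genes, at 27.5 and 31.7, 55.5 and 47.9 and 6.71 and 6.48 CPM.

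**Figure D2:**
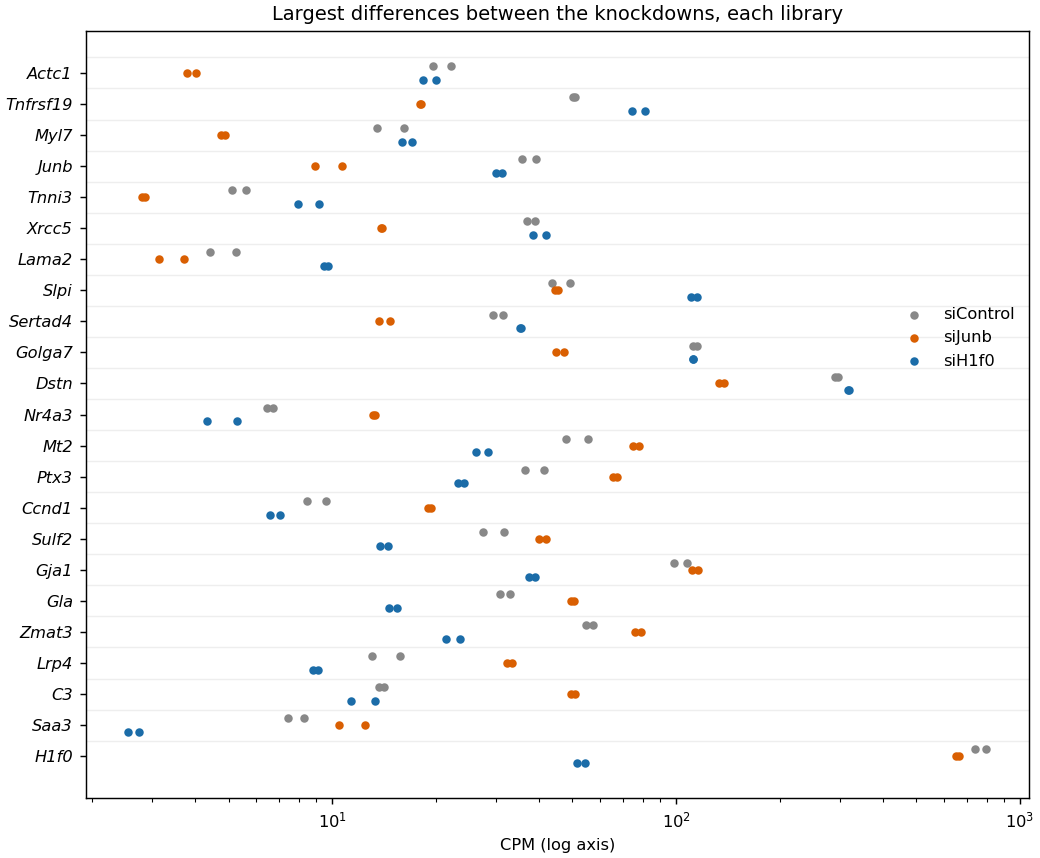
The plot shows 11 of the 12 genes with the largest positive and the 12 with the largest negative log2 change, with CPM of each library on a log x axis and 1 dot per library, colored by group. The rule that chose these genes required siJunb and siH1f0 dots to be apart. The siControl dots sit with siH1f0 for Actc1, Dstn and Golga7, with siJunb for Slpi and Gja1, and between the knockdowns for Gla and Sulf2.

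Promoter sequence was examined for the AP-1 site TGANTCA, the response element TGACGTCA, and the CArG box, the site of serum response factor, which drives many actin and myosin genes. Neither of the first pair contains the other. RefSeq promoter windows, of which a gene can have several, run from 250 bases before to 50 bases after each gene start on GRCm38.p6. Genes higher in siH1f0 with a CArG box include Actc1, Myl7, Lama2 and Myl9. They are shown because they are among the contractile and matrix genes with the largest changes, with the box in capitals and the gene's own strand written 5′ to 3′. Actc1 is from chr2:114052888-114052947 (minus strand), Myl7 from chr11:5898809-5898868 (minus strand), Lama2 from chr10:27616947-27617006 (minus strand) and Myl9 from chr2:156775278-156775337 (plus strand).
Actc1: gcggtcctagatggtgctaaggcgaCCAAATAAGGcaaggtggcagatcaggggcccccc
Myl7: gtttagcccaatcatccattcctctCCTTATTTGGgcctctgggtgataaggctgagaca
Lama2: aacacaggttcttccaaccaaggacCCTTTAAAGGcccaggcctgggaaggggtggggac
Myl9: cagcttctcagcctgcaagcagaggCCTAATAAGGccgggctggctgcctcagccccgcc
The boxes end 38, 52, 30 and 152 bases before the start that the window belongs to, in that order. For Lama2 and Myl9 that start lies inside the span of the gene. Genes lower in siH1f0 with an AP-1 site, shown with the site in capitals, include Gja1, Mt2, the membrane protease gene Adam19 and the cytokine gene Lif. Gja1 is from chr10:56377256-56377299 (plus strand), Mt2 from chr8:94172514-94172570 (plus strand), Adam19 from chr11:46055828-46055884 (plus strand) and Lif from chr11:4257318-4257371 (plus strand).
Gja1: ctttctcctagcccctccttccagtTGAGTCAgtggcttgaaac
Mt2: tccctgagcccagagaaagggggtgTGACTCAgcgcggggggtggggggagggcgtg
Adam19: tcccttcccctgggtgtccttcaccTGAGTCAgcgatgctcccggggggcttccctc
Lif: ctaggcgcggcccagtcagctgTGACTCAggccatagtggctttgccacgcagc
These sites end 13, 73, 125 and 222 bases before the start that the window belongs to, which for Adam19 lies inside the span of the gene. The opposite pairing also occurred. Dusp5 and Pdgfc, lower in siH1f0, held a CArG box, and Ldb3, higher there, an AP-1 site. Both strands were searched, and a match describes letters in the window, not binding. A CArG box was in 12 of 304 promoters (3.95%, from 246 genes) of genes called at least 1.5-fold higher in siH1f0, 3 of 302 (0.993%, from 235 genes) of genes called at least 1.5-fold lower, 1.35% of promoters of genes tested and 1.63% of all 32851. TGANTCA was in 15 of 304 (4.93%), 24 of 302 (7.95%), 5.24% and 7.81% in the same order. The full response element TGACGTCA was in 5 (1.64%), 8 (2.65%), 3.06% and 1.79%. Of the 24 promoters found for 19 genes of the cardiac sarcomere, 5 held a CArG box (20.8%) and 4 an AP-1 site (16.7%). One gene, Ldb3, encoding a Z-disc protein, held both. Its windows overlap and share these matches, so the same bases enter both counts more than once.

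None of the induced factors was called. Mef2c was at 752 and 729 CPM (siJunb) against 792 and 714 CPM (siH1f0), Gata4 at 1391 and 1343 CPM (siJunb) against 1479.9 and 1393 CPM (siH1f0) and Tbx5 at 2427 and 2389 CPM (siJunb) against 2619.6 and 2484 CPM (siH1f0). The log2 changes were 0.02, 0.07 and 0.08 (adjusted p = 0.957, 0.812 and 0.648), with groups that overlapped for Mef2c and not for Gata4 or Tbx5. In siControl the libraries lay far apart, at 354 and 709 CPM for Mef2c, 844 and 1411 for Gata4 and 1858 and 2554 for Tbx5, and this spread enters the SEs. For Mef2c the sign turned without siH1f0 1, to -0.0503, still not past the test. With the 4 compared libraries alone, or without 1 siControl library, 2 of the 3 factors passed as higher in siH1f0.

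Called genes of the cardiac sarcomere, the contractile unit of heart muscle, were mostly higher in siH1f0. Of 24 measured members 12 were called higher and 4 lower, with a median log2 change of 0.37 beside 0.000715 over all genes tested. The share called was 66.7%, beside 25.9% of all genes tested (12.2% higher and 13.8% lower). Without 1 compared library 9 to 10 were called higher and 0 to 1 lower. The summed CPM of the 24 genes was not higher in siH1f0. It was 2516 and 2586 in siJunb, 2497 and 2550 in siH1f0 and 2678 and 2533 in siControl. Tpm1, called lower, made up most of it, at 1846 and 1917 CPM (siJunb) against 1652 and 1703 CPM (siH1f0). Of thin filament genes, Tnni3 encodes cardiac troponin I and was at 2.80 and 2.87 CPM (siJunb) against 7.96 and 9.19 CPM (siH1f0), a log2 change of 1.60 ± 0.13 (SE, adjusted p = 7.89e-05). Tnnt2, cardiac troponin T, had a log2 change of 0.06 and was not called. Among the thick filament and its anchors, Myh6, the gene of the reporter, was at 7.06 and 6.28 CPM (siJunb) against 10.9 and 10.7 CPM (siH1f0), a log2 change of 0.69 ± 0.11 (SE, adjusted p = 0.00266). Myom1 encodes the M-band protein myomesin and was at 8.79 and 9.46 CPM (siJunb) against 16.6 and 16.5 CPM (siH1f0), and its relative Myom2 was at 247 and 244 CPM (siJunb) against 362 and 352 CPM (siH1f0). The log2 changes of the pair were 0.86 and 0.54 (adjusted p = 0.000199 and 9.53e-05). Ttn, the titin gene, was at 7.62 and 6.97 CPM (siJunb) against 13.3 and 13.4 CPM (siH1f0), and its call (adjusted p = 0.00496) was lost without siJunb 2 (adjusted p = 0.0534). Of Z-disc and intercalated disc genes, Ldb3 was at 23.1 and 22.7 CPM (siJunb) against 33.3 and 33.2 CPM (siH1f0) and Xirp2 at 37.4 and 35.2 CPM (siJunb) against 47.5 and 49.3 CPM (siH1f0), with log2 changes of 0.54 and 0.41 (adjusted p = 0.000727 and 0.00267). Myh7 and Tnnc1, higher by 0.85 and 0.33, lost their calls without any 1 compared library, that is, whichever of the 4 was left out (adjusted p up to 0.244 and 0.219).

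**Figure D3:**
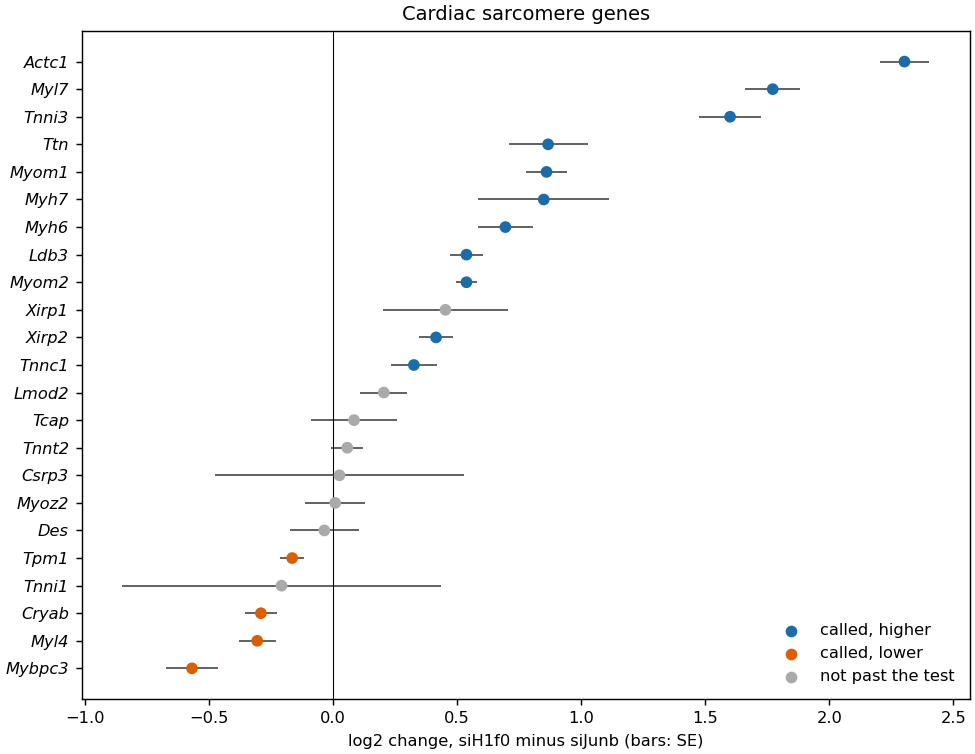
Points give the log2 change, siH1f0 minus siJunb, of 23 of the 24 measured cardiac sarcomere genes on the x axis, with bars of 1 SE, ordered by size. The 11 shown that were called higher run from Tnnc1 at 0.33 to Actc1 at 2.30. The 4 called lower, Tpm1, Cryab, Myl4 and Mybpc3, lie between -0.17 and -0.57.

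The exceptions within the sarcomere list were modest in size. Mybpc3, myosin-binding protein C, was at 12.6 and 11.4 CPM (siJunb) against 7.99 and 8.20 CPM (siH1f0), a log2 change of -0.57 ± 0.10 (SE, adjusted p = 0.00474), a call lost without siJunb 1 or siH1f0 1 (adjusted p up to 0.0583). Myl4, the atrial essential light chain, the chaperone gene Cryab and the tropomyosin gene Tpm1 were lower by 0.31, 0.29 and 0.17, and each call was lost without any 1 of the 4 compared libraries (adjusted p up to 0.155, 0.128 and 0.27). Tpm1, at 1846 and 1917 CPM (siJunb) against 1652 and 1703 CPM (siH1f0), also lost its call with total-count scaling. Against siControl, siJunb had 12 of the 24 members called lower and 1 higher, and siH1f0 had 4 lower and 2 higher. Of the members named above, Myom2 was at 355 and 349.7 CPM in siControl and Xirp2 at 47.9 and 52.8 CPM, in each case above both siJunb libraries. Myom1 at 11.02 and 11.6 CPM and Tnni3 at 5.10 and 5.63 CPM lay between the knockdowns. In bulk RNA, more cells that express a gene and more RNA per cell cannot be told apart.

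Among genes of cardiac calcium handling, conduction and natriuretic peptides more were called lower than higher, though the list median was positive. Of 11 measured, 1 was called higher and 5 lower (1 higher and 1 to 2 lower), with a median of 0.10. The share called was 54.5%, beside 25.9% of all genes tested. Casq2, the calcium store protein calsequestrin, was at 29.8 and 30.2 CPM (siJunb) against 38.1 and 37.3 CPM (siH1f0), a log2 change of 0.33 ± 0.054 (SE, adjusted p = 0.00283), with siControl above both at 52.4 and 51.8 CPM. The lower calls were led by Gja1. Nppb, the B-type natriuretic peptide gene, was at 1.92 and 2.53 CPM (siJunb) against 0.714 and 1.03 CPM (siH1f0), a log2 change of -1.33 ± 0.25 (SE, adjusted p = 0.00544), and lost its call without siJunb 2 or siH1f0 1 (adjusted p up to 0.0532). Jph2, Kcnj2 and Camk2d were lower by 0.34, 0.32 and 0.21, calls that were lost without any 1 compared library (adjusted p up to 0.179). Of 7 measured cardiac transcription factors other than the induced ones, only Mef2d was called (14.3%). It was at 149.6 and 141 CPM (siJunb) against 91.2 and 85.8 CPM (siH1f0), a log2 change of -0.72 ± 0.059 (SE, adjusted p = 9.86e-05). The siControl libraries lay between at 102 and 109 CPM. Srf, the gene of serum response factor, was at 77.8 and 76.1 CPM (siJunb) against 74.7 and 82.1 CPM (siH1f0), a log2 change of 0.03 (adjusted p = 0.784), with overlapping groups.

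Fibroblast genes were read as a check on the labelled cell type. Vim, Col1a1 and Fn1 each exceeded 1000 CPM in all libraries, with Col1a1 at 1314 and 1300.2 CPM (siJunb) against 1296 and 1234 CPM (siH1f0). By contrast Thy1, a surface marker of many fibroblasts, had 0 counts in the 4 libraries, and Lum was at 0 in 3 of them. Col3a1 and Postn were low too. Col3a1 was at 1.69 and 1.34 CPM (siJunb) against 1.32 and 1.27 CPM (siH1f0). Postn was at 0.687 and 0.482 CPM (siJunb) against 0.5 and 0.462 CPM (siH1f0). Of 11 measured fibroblast genes 2 were called higher and 4 lower (1 higher and 1 lower), with a median of -0.18. This was 54.5% called, beside 25.9% of all genes tested. Col1a2 was at 534 and 524 CPM (siJunb) against 708 and 688 CPM (siH1f0), a log2 change of 0.40 ± 0.043 (SE, adjusted p = 0.000395), although its partner chain Col1a1 differed by -0.05 (adjusted p = 0.466). Dcn, the small proteoglycan decorin, was at 15.1 and 15.5 CPM (siJunb) against 7.43 and 7.56 CPM (siH1f0), a log2 change of -1.03 ± 0.11 (SE, adjusted p = 0.000298). In siControl it was at 5.21 and 4.27 CPM, below both knockdowns. Vim, Pdgfra, Pdgfrb and Fn1 differed by 0.18, 0.31 and 0.20 lower and 0.38 higher, and each of these 4 calls was lost without any 1 compared library (adjusted p up to 0.213).

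Among 21 measured collagen chains 3 were called higher and 5 lower (1 to 2 higher and 3 to 4 lower). Chains of types IV and V were among the lower ones: Col4a2 was at 1018 and 992 CPM (siJunb) against 713 and 709 CPM (siH1f0), Col5a2 at 1779 and 1709.8 CPM (siJunb) against 1224 and 1248 CPM (siH1f0) and Col5a1 at 220.2 and 213 CPM (siJunb) against 170.1 and 173 CPM (siH1f0). Their log2 changes were -0.50, -0.50 and -0.34 (adjusted p = 0.0003, 0.00036 and 0.00191). Col4a1, the partner of Col4a2, differed by -0.19 and was not called (adjusted p = 0.0508). The share of collagen chains called was 38.1%, beside 25.9% of all genes tested. Of 33 other matrix proteins and cross-linking enzymes 7 were higher and 9 lower (3 to 5 higher and 5 to 8 lower), and their median of -0.00195 turned to 0.048 with total-count scaling. In this list 48.5% were called. Thrombospondins moved apart. Thbs1 was at 196 and 199.9 CPM (siJunb) against 131 and 124 CPM (siH1f0), a log2 change of -0.63 ± 0.074 (SE, adjusted p = 0.000573), and Thbs2 at 29.7 and 27.7 CPM (siJunb) against 51.02 and 50.8 CPM (siH1f0), a log2 change of 0.83 ± 0.066 (SE, adjusted p = 8.47e-05). The cross-linking enzymes did the same, with Lox at 174 and 165 CPM (siJunb) against 115 and 113 CPM (siH1f0) and Loxl3 at 32.1 and 30.2 CPM (siJunb) against 43.3 and 42.9 CPM (siH1f0), log2 changes of -0.57 and 0.47 (adjusted p = 0.00122 and 0.000959). Ltbp2, which binds fibrillin fibres, and Efemp1, a fibulin, were lower by 0.53 and 0.31 (adjusted p = 0.0016 and 0.00157).

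Proteases and their inhibitors were called in equal number, 6 higher and 6 lower of 22 measured (4 to 5 higher and 2 to 3 lower). This was 54.5% called, beside 25.9% of all genes tested. Adam19 was at 192 and 187 CPM (siJunb) against 98.9 and 99.4 CPM (siH1f0), a log2 change of -0.93 ± 0.069 (SE, adjusted p = 5.97e-05), and siControl was near siH1f0 at 82.9 and 96.2 CPM. Plat, the tissue plasminogen activator, was at 24.99 and 24.6 CPM (siJunb) against 36.3 and 36.9 CPM (siH1f0), a log2 change of 0.56 ± 0.056 (SE, adjusted p = 0.000259). Timp2 and Mmp11 were higher by 0.28 and 0.34 (adjusted p = 0.00189 and 0.00119). Of 17 contractile genes of smooth muscle and myofibroblasts, 4 were higher and 1 lower (3 higher and 0 lower). Acta2, smooth muscle alpha-actin, was at 75.3 and 77.1 CPM (siJunb) against 109 and 112 CPM (siH1f0), with siControl below both at 63.1 and 58.1 CPM and a log2 change of 0.54 ± 0.057 (SE, adjusted p = 0.000338). Myl9, the smooth muscle regulatory light chain, was at 9.73 and 11.2 CPM (siJunb) against 22.4 and 23.5 CPM (siH1f0), a log2 change of 1.14 ± 0.12 (SE, adjusted p = 0.000377). Tagln, another widely used gene of this group, differed by 0.25 and was not called. In this list 29.4% were called, near the 25.9% of all genes tested.

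Target genes of p53, the factor that halts the cycle or starts cell death after damage, were mostly lower in siH1f0 than in siJunb. Of 25 measured, Trp53 itself included, 17 were called lower and 1 higher, with a median of -0.36, and 12 to 13 were called lower without 1 compared library. The share called was 72.0%, beside 25.9% of all genes tested. Zmat3, an RNA-binding zinc finger protein, was at 76.2 and 78.9 CPM (siJunb) against 23.5 and 21.5 CPM (siH1f0), a log2 change of -1.79 ± 0.064 (SE, adjusted p = 3e-06). Ccng1, cyclin G1, was at 203 and 194 CPM (siJunb) against 84.8 and 83.9 CPM (siH1f0), a log2 change of -1.23 ± 0.059 (SE, adjusted p = 7.59e-06). Eda2r, a death receptor family member, was at 107 and 109 CPM (siJunb) against 45.97 and 45.04 CPM (siH1f0), a log2 change of -1.24 ± 0.12 (SE, adjusted p = 0.000269). All 3 had siControl between the knockdowns, at 54.6 and 57.2, 127 and 139 and 73.8 and 102 CPM. Genes of arrest and death shared the direction: Cdkn1a, which encodes the CDK inhibitor p21, was at 336 and 328 CPM (siJunb) against 221 and 226 CPM (siH1f0), Bax, which permeabilises mitochondria, at 97.001 and 94.7 CPM (siJunb) against 64.7 and 62.4 CPM (siH1f0), and the death receptor gene Fas at 27.3 and 25.3 CPM (siJunb) against 15.8 and 15.6 CPM (siH1f0). Their log2 changes were -0.57, -0.59 and -0.75 (adjusted p = 0.000135, 0.001 and 0.000225). Phlda3, Aen, Trp53inp1, Btg2, Tnfrsf10b and Pmaip1 were also lower, by 0.36 to 0.96. Mdm2, the ligase that degrades p53, was lower by 0.30, a call lost without siH1f0 1 (adjusted p = 0.0503).

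Sesn1, a stress-response regulator, was the 1 member called higher, at 76.4 and 78.7 CPM (siJunb) against 96.8 and 98.3 CPM (siH1f0), a log2 change of 0.33 ± 0.048 (SE, adjusted p = 0.00169). Its relative Sesn2 was lower by 0.26 and lost the call without any 1 compared library, as did Bbc3, Gtse1 and Trp53 (adjusted p up to 0.119, 0.207, 0.314 and 0.322). Trp53 itself was at 298 and 281 CPM (siJunb) against 254 and 262 CPM (siH1f0), a log2 change of -0.17 ± 0.051 (SE, adjusted p = 0.0421), a call also lost with total-count scaling. Gadd45a, Plk2, Ddb2, Xpc, Rrm2b and Ei24 were not called, with log2 changes from -0.14 to 0.15, nor was Perp, at 0.288 and 0.544 CPM (siJunb) against 0.249 and 0.239 CPM (siH1f0). Against siControl, siJunb had 9 of the 25 higher and 3 lower, and siH1f0 had 11 lower and 0 higher.

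**Figure D4:**
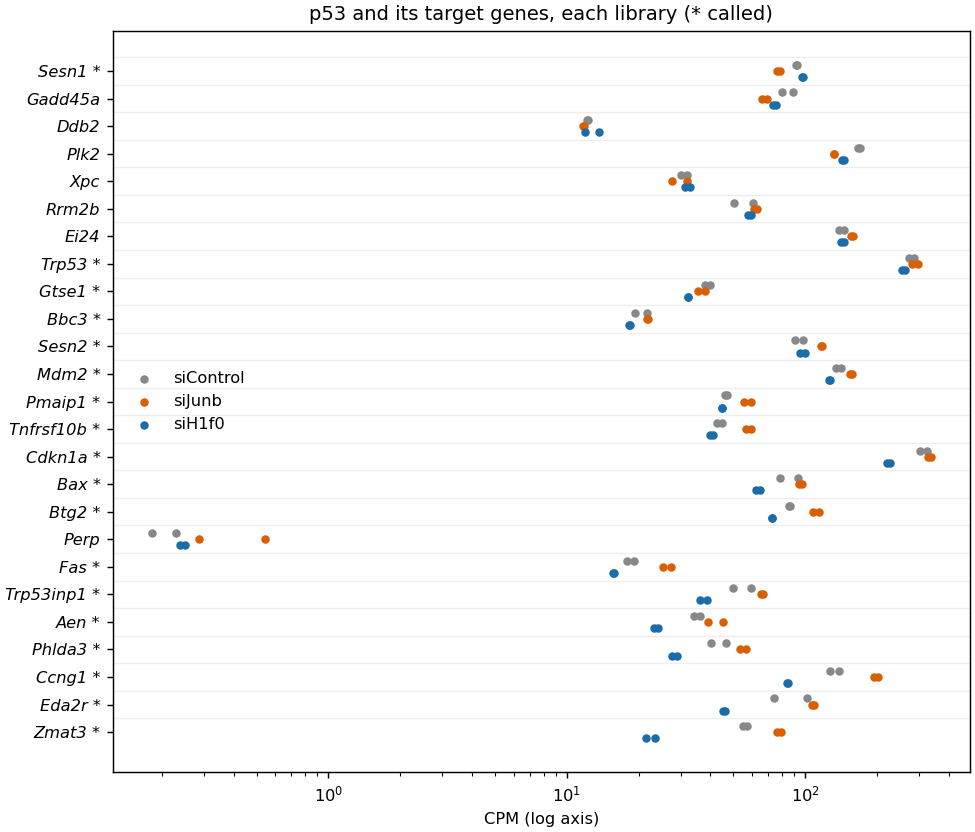
CPM of each library on a log x axis are shown for Trp53 and its 24 measured target genes, 1 dot per library and colored by group, with an asterisk for genes called between siH1f0 and siJunb. From Sesn2 down to Zmat3 the siH1f0 dots lie left of the siJunb dots, and for Sesn1 they lie to the right.

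Cyclins D1 and D2 and the kinase gene Cdk6 were lower in siH1f0, and called genes of S phase and mitosis were mostly higher. Of 15 measured cyclin D, CDK and inhibitor genes 5 were lower and 2 higher (0 to 1 higher and 4 to 5 lower). In this list 46.7% were called, beside 25.9% of all genes tested. Ccnd1, cyclin D1, was at 19.05 and 19.4 CPM (siJunb) against 6.61 and 7.05 CPM (siH1f0), a log2 change of -1.49 ± 0.093 (SE, adjusted p = 2.39e-05). Ccnd2 was at 367 and 366 CPM (siJunb) against 231 and 222 CPM (siH1f0), a log2 change of -0.70 ± 0.074 (SE, adjusted p = 0.000345), and their partner kinase gene Cdk6 at 91.9 and 87.9 CPM (siJunb) against 60.4 and 62.5 CPM (siH1f0), a log2 change of -0.55 ± 0.064 (SE, adjusted p = 0.00056). Both siJunb libraries exceeded both siControl libraries for each (siControl at 9.61 and 8.46, 234 and 277 and 73.6 and 66.1 CPM). Of 25 G2/M genes 14 were higher and 1 lower, with a median of 0.20, and of 26 S-phase genes 12 were higher and 1 lower, with a median of 0.13. Without 1 compared library 4 to 6 G2/M and 4 to 6 S-phase genes were called higher and 0 lower. Foxm1, the transcription factor of mitotic genes, was at 106 and 101 CPM (siJunb) against 145 and 146 CPM (siH1f0), a log2 change of 0.50 ± 0.055 (SE, adjusted p = 0.000428). Top2a, topoisomerase II alpha, was at 397 and 401 CPM (siJunb) against 547 and 541 CPM (siH1f0), and Aurkb, a mitotic kinase, at 40.1 and 41.8 CPM (siJunb) against 52.4 and 52.1 CPM (siH1f0), with log2 changes of 0.45 and 0.35 (adjusted p = 0.000675 and 0.00188). Of S-phase genes, Ccne2, cyclin E2, was at 26.3 and 27.4 CPM (siJunb) against 39.97 and 42.6 CPM (siH1f0), a log2 change of 0.62 ± 0.094 (SE, adjusted p = 0.00191). Pole, the leading-strand polymerase, was at 151 and 156 CPM (siJunb) against 222 and 219 CPM (siH1f0), and Cdc6, a loader of the replicative helicase, at 63.7 and 65.7 CPM (siJunb) against 88.5 and 85.9 CPM (siH1f0), with log2 changes of 0.53 and 0.43 (adjusted p = 0.00175 and 0.000573). Mki67 was at 168 and 165 CPM (siJunb) against 229 and 225 CPM (siH1f0), and its call (adjusted p = 0.0133) was lost without any 1 compared library (adjusted p up to 0.1). Pcna and Ccnb1 were not called, at 0.03 and -0.09.

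Called inflammatory genes were mostly lower in siH1f0 than in siJunb. Of 25 measured acute-phase, complement and NF-kB genes 11 were lower and 1 higher, with a median of -0.31, and 7 to 8 were called lower without 1 compared library. The share called was 48.0%, beside 25.9% of all genes tested. Beside Saa3 and C3, Vcam1, an adhesion molecule for leukocytes, was at 18.8 and 20.9 CPM (siJunb) against 7.23 and 7.20 CPM (siH1f0), a log2 change of -1.46 ± 0.10 (SE, adjusted p = 4.7e-05). The feedback regulators Nfkbiz and Nfkbia were at 98.9 and 95.7 CPM (siJunb) against 66.2 and 65.02 CPM (siH1f0), and at 48.6 and 47.9 CPM (siJunb) against 35.3 and 38.01 CPM (siH1f0). Their log2 changes were -0.57 and -0.40 (adjusted p = 0.000174 and 0.00208). Hp, which encodes haptoglobin, was low in all libraries, at 1.65 and 1.51 CPM (siJunb) against 0.332 and 0.269 CPM (siH1f0), a log2 change of -2.39 ± 0.28 (SE, adjusted p = 0.000578). Of 19 chemokines and cytokines 8 were lower and 3 higher (1 to 2 higher and 6 to 7 lower), with a median of -0.34 and 57.9% called. Cxcl1, which attracts neutrophils, was at 6.20 and 6.68 CPM (siJunb) against 2.26 and 2.38 CPM (siH1f0), a log2 change of -1.47 ± 0.12 (SE, adjusted p = 0.000123), and Ccl7, which attracts monocytes, at 5.77 and 5.67 CPM (siJunb) against 2.48 and 2.26 CPM (siH1f0), a log2 change of -1.27 ± 0.12 (SE, adjusted p = 0.000241). Csf1, the macrophage growth factor, was at 507 and 495 CPM (siJunb) against 384 and 377 CPM (siH1f0), and siControl was near siH1f0 at 357 and 366 CPM. Cxcl12 went the other way, at 178 and 179 CPM (siJunb) against 228 and 224 CPM (siH1f0), a log2 change of 0.34 ± 0.045 (SE, adjusted p = 0.00101).

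Of 15 measured antigen presentation genes 7 were lower and 0 higher, with a median of -0.24, and 2 were called without 1 compared library. The share called was 46.7%, beside 25.9% of all genes tested. Nlrc5, an activator of MHC class I genes, was at 73.3 and 73.1 CPM (siJunb) against 51.5 and 49.5 CPM (siH1f0), a log2 change of -0.53 ± 0.058 (SE, adjusted p = 0.00039). B2m, the invariant chain of class I molecules, was at 1399.9 and 1483 CPM (siJunb) against 1172 and 1111 CPM (siH1f0), a log2 change of -0.34 ± 0.052 (SE, adjusted p = 0.00222). Of 40 interferon-stimulated genes 11 were lower and 6 higher (0 to 1 higher and 5 to 6 lower), and their median of -0.026 turned to 0.024 with total-count scaling. In this list 42.5% were called. Zbp1, a sensor of Z-form nucleic acid, was at 5.13 and 5.21 CPM (siJunb) against 2.66 and 2.74 CPM (siH1f0), a log2 change of -0.94 ± 0.12 (SE, adjusted p = 0.001), Gbp2 was lower by 0.51 and Stat2 by 0.31 (adjusted p = 0.00126 and 0.00212). Common members of the response such as Isg15, Ifit3 and Oasl2 were not called, with log2 changes from -0.02 to 0.03.

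AP-1 genes other than Junb were called in both directions, 5 higher with Junb included and 4 lower of 17 measured (3 higher and 3 to 4 lower). This was 52.9% called, beside 25.9% of all genes tested. Fosl2, a FOS family partner of JUN proteins, was at 255 and 242 CPM (siJunb) against 155 and 155 CPM (siH1f0), a log2 change of -0.68 ± 0.054 (SE, adjusted p = 8.42e-05). Its siControl libraries were between at 204 and 220.1 CPM. The small MAF genes Maff and Mafk were lower by 0.38 and 0.34 (adjusted p = 0.00134 and 0.00152). Atf7 was at 97.4 and 101 CPM (siJunb) against 157 and 152 CPM (siH1f0), a log2 change of 0.64 ± 0.11 (SE, adjusted p = 0.00305), and Jdp2, which dimerises with JUN proteins and represses, at 127 and 123 CPM (siJunb) against 159 and 162 CPM (siH1f0), a log2 change of 0.36 ± 0.048 (SE, adjusted p = 0.00105). Jun, Fos, Fosb and Fosl1 were not called, with log2 changes from -0.00 to 0.04. Apart from Junb itself, the JUN and FOS family genes that moved were thus Fosl2 and Jund, and Jund, higher by 0.29, lost its call without any 1 compared library (adjusted p up to 0.181).

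Of 19 measured genes known as AP-1 targets 9 were lower in siH1f0 and 2 higher, with a median of -0.20, and 5 were called lower without 1 compared library. The share called was 57.9%, beside 25.9% of all genes tested. Hmga2, an architectural chromatin protein of growing cells, was at 50.7 and 52.1 CPM (siJunb) against 22.1 and 22.4 CPM (siH1f0), a log2 change of -1.21 ± 0.069 (SE, adjusted p = 1.47e-05). Lif was at 19.8 and 18.9 CPM (siJunb) against 11.3 and 11.3 CPM (siH1f0), a log2 change of -0.78 ± 0.071 (SE, adjusted p = 0.000174), and Cd44, the hyaluronan receptor, at 164 and 161 CPM (siJunb) against 120.3 and 121 CPM (siH1f0), a log2 change of -0.43 ± 0.052 (SE, adjusted p = 0.000718). Against siControl, siJunb had 4 of the 19 higher and 3 lower, and siH1f0 had 1 higher and 5 lower. Dusp1, which encodes a phosphatase of MAP kinases, was the clearest member in the other direction, at 34.1 and 32.3 CPM (siJunb) against 53.6 and 55.7 CPM (siH1f0), a log2 change of 0.72 ± 0.059 (SE, adjusted p = 9.86e-05). It belongs also to the 16 measured MAPK feedback genes, of which 3 were higher and 4 lower (2 higher and 2 lower), with 43.8% called. Dusp5 was at 19.6 and 16.6 CPM (siJunb) against 9.47 and 7.81 CPM (siH1f0), a log2 change of -1.07 ± 0.12 (SE, adjusted p = 0.000367), so 2 phosphatase genes of that list stood on opposite sides. Spry2 was lower by 0.39 and Dusp14 higher by 0.42 (adjusted p = 0.00212 and 0.00104).

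Of 25 measured growth factor receptors and ligands 11 were lower and 1 higher, with a median of -0.29. The share called was 48.0%, beside 25.9% of all genes tested. Tgfa, a ligand of the EGF receptor, was at 37.4 and 32.7 CPM (siJunb) against 14.6 and 14.7 CPM (siH1f0), a log2 change of -1.26 ± 0.088 (SE, adjusted p = 4.7e-05), and siControl was with siJunb at 28.6 and 32.4 CPM. Fgf7, a fibroblast factor for epithelia, was at 117 and 118 CPM (siJunb) against 64.8 and 61.6 CPM (siH1f0), a log2 change of -0.90 ± 0.055 (SE, adjusted p = 2.3e-05). Pdgfc was at 55.8 and 57.3 CPM (siJunb) against 39.4 and 39.4 CPM (siH1f0), a log2 change of -0.52 ± 0.052 (SE, adjusted p = 0.000259). The receptor genes Egfr and Met were lower by 0.49 and 0.35, calls that ended when siJunb 1, siJunb 2 or siH1f0 2 was left out (largest adjusted p 0.154 and 0.103). Without 1 compared library 3 to 5 of the list were called lower and 0 higher. Of 16 YAP and TEAD target genes, which respond to stretch and cell density, 7 were lower and 0 higher (0 higher and 2 to 6 lower), with a median of -0.17. In this list 43.8% were called. Axl, a receptor kinase, was at 620.4 and 597 CPM (siJunb) against 471 and 455 CPM (siH1f0), a log2 change of -0.39 ± 0.050 (SE, adjusted p = 0.000823), and Ankrd1, a stretch-responsive gene also used as a cardiac marker, at 589 and 599 CPM (siJunb) against 453 and 459 CPM (siH1f0), a log2 change of -0.38 ± 0.045 (SE, adjusted p = 0.000577). Ctgf was lower by 0.25 and lost its call when siJunb 1, siH1f0 1 or siH1f0 2 was left out (largest adjusted p 0.0684), and Cyr61 was not called at -0.05.

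Of 7 measured linker histone genes, H1f0 was called lower and H1fx higher (28.6% called, beside 25.9% of all genes tested). H1fx encodes H1.10 and was at 41.9 and 40.2 CPM (siJunb) against 57.1 and 59.1 CPM (siH1f0), a log2 change of 0.50 ± 0.084 (SE, adjusted p = 0.00307), with siControl at 62.2 and 51.9 CPM. The siH1f0 libraries lay within the siControl range and the siJunb libraries below it. Hist1h1c, a replication-dependent H1 gene, was at 24.003 and 23.98 CPM (siJunb) against 20.7 and 21.2 CPM (siH1f0), a log2 change of -0.20 ± 0.067 (SE, adjusted p = 0.0604), not past the test. Transcripts of replication-dependent histone genes mostly lack poly(A) tails, which limits how well a poly(A) library shows them. The summed CPM of the 7 genes was 735.5 and 718.2 in siJunb and 132.4 and 137.6 in siH1f0, against 907.1 and 834.5 in siControl. Of 10 replication-independent core histone variants 5 were higher and 1 lower (1 to 2 higher and 0 lower). H2afv was at 82.2 and 79.2 CPM (siJunb) against 108 and 103 CPM (siH1f0), a log2 change of 0.39 ± 0.058 (SE, adjusted p = 0.00191), and the other 5 calls were lost without 1 or more of the compared libraries, H2afy2 without siJunb 1 or siH1f0 2 (adjusted p up to 0.06) and H2afx, Cenpa, H3f3a and H2afz without any 1 of them (up to 0.354).

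Chromatin regulators tied to cell identity were split, with 7 of 33 higher and 6 lower (1 to 2 higher and 2 to 4 lower). The share called was 39.4%, beside 25.9% of all genes tested. Suz12, a core subunit of Polycomb repressive complex 2, was at 181 and 186 CPM (siJunb) against 258 and 264 CPM (siH1f0), a log2 change of 0.51 ± 0.056 (SE, adjusted p = 0.000409). Its methyltransferase Ezh2 was higher by 0.25, a call lost without any 1 compared library (adjusted p up to 0.0741), and the alternative enzyme Ezh1 was lower, at 46.3 and 48.2 CPM (siJunb) against 37.5 and 36.9 CPM (siH1f0), a log2 change of -0.35 ± 0.054 (SE, adjusted p = 0.00227). Eed, the third core subunit, was not called at -0.05. Cbx5, which encodes the heterochromatin protein HP1 alpha, was at 614 and 613 CPM (siJunb) against 475 and 479.6 CPM (siH1f0), a log2 change of -0.36 ± 0.066 (SE, adjusted p = 0.00472), lost without siJunb 1 or siH1f0 1 (adjusted p up to 0.0548). Of 26 measured Hox genes, which record position along the body axis, 3 were higher and 4 lower (26.9% called, near the 25.9% of all genes), and 0 to 1 in each direction were called without 1 compared library.

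Of 48 measured nuclear-encoded oxidative phosphorylation genes 11 were lower and 0 higher (22.9% called, beside 25.9% of all genes tested), with a median of -0.12, and 1 to 3 were called without 1 compared library, against 28 to 29 without siControl 1 or siControl 2. Over all genes tested 13.8% were called lower. With the 4 compared libraries alone 28 of this list were called lower, where 3343 of 13204 genes were. Ndufa4, a small subunit of the respiratory chain, was at 126 and 124 CPM (siJunb) against 74.3 and 77.5 CPM (siH1f0), a log2 change of -0.72 ± 0.063 (SE, adjusted p = 0.00014). Of 19 glycolysis genes 8 were lower and 2 higher (2 higher and 2 to 4 lower), with a median of -0.15 and 52.6% called. Hk2, hexokinase 2, was at 75.2 and 78.3 CPM (siJunb) against 55.9 and 54.3 CPM (siH1f0), a log2 change of -0.48 ± 0.053 (SE, adjusted p = 0.000416), and Aldoa, aldolase A, at 638 and 636 CPM (siJunb) against 464 and 462 CPM (siH1f0), a log2 change of -0.46 ± 0.048 (SE, adjusted p = 0.000338). The phosphofructokinase genes Pfkm and Pfkl were instead higher by 0.36 and 0.37 (adjusted p = 0.00214 and 0.00205). Of 28 sterol and fatty acid genes 8 were lower and 3 higher (1 higher and 4 to 6 lower), and their median of -0.014 turned to 0.036 with total-count scaling. In this list 39.3% were called. Srebf2, which encodes the factor that drives cholesterol genes, was at 223 and 218 CPM (siJunb) against 166 and 166 CPM (siH1f0), a log2 change of -0.41 ± 0.051 (SE, adjusted p = 0.000811), and siControl stood with siJunb at 218 and 235 CPM. Insig1, which restrains that factor, was higher by 0.39 (adjusted p = 0.00187).

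Of 20 hypoxia genes 5 were lower and 2 higher (0 to 1 higher and 2 lower). Egln3, an oxygen-sensing prolyl hydroxylase, was at 10.7 and 9.90 CPM (siJunb) against 4.12 and 3.76 CPM (siH1f0), a log2 change of -1.39 ± 0.10 (SE, adjusted p = 6.14e-05), with siControl beside siJunb at 11.2 and 12.1 CPM. Ak4, a mitochondrial adenylate kinase, was at 3.95 and 3.85 CPM (siJunb) against 1.60 and 1.93 CPM (siH1f0), a log2 change of -1.14 ± 0.15 (SE, adjusted p = 0.00119). Hif1a and Slc2a1 were not called, at 0.13 and -0.11. Of 21 genes of the integrated stress response 5 were higher and 2 lower, and 0 to 1 were called higher and 0 lower without 1 compared library. Atf4, its central factor, was not called at 0.05. The share called in the integrated stress response list was 33.3%, beside the same 25.9%.

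In the Wnt pathway 4 of 25 measured genes were higher and 4 lower (3 higher and 1 lower). Among ligands, Wnt5a was at 7.65 and 7.72 CPM (siJunb) against 14.3 and 14.2 CPM (siH1f0), a log2 change of 0.89 ± 0.086 (SE, adjusted p = 0.000225). Among receptors, Fzd5 was at 48.3 and 45.3 CPM (siJunb) against 72.04 and 71.2 CPM (siH1f0), a log2 change of 0.61 ± 0.063 (SE, adjusted p = 0.000305), and Lrp4, which also binds agrin and sclerostin, at 32.2 and 33.4 CPM (siJunb) against 8.81 and 9.13 CPM (siH1f0), a log2 change of -1.87 ± 0.096 (SE, adjusted p = 1e-05). Wif1, a secreted Wnt inhibitor, was at 1.53 and 1.32 CPM (siJunb) against 3.94 and 3.80 CPM (siH1f0), a log2 change of 1.43 ± 0.14 (SE, adjusted p = 0.000259), with siControl above both at 5.55 and 5.33 CPM. Axin2, a common target of the pathway, was not called at -0.16. The share of the Wnt list called was 32.0%, beside 25.9% of all genes tested. In the TGF-beta and BMP pathway 9 of 36 were lower and 3 higher, against 6 lower and 0 to 1 higher without 1 compared library. The ligand genes Bmp4, Inhba and Tgfb2 were lower by 0.71, 0.54 and 0.47 (adjusted p = 0.00157, 0.00177 and 0.0015). The BMP antagonist gene Grem1 was at 229 and 222 CPM (siJunb) against 152 and 144 CPM (siH1f0), a log2 change of -0.61 ± 0.11 (SE, adjusted p = 0.00411), and the receptor gene Tgfbr2 at 91.8 and 91.5 CPM (siJunb) against 64.4 and 64.8 CPM (siH1f0), a log2 change of -0.50 ± 0.053 (SE, adjusted p = 0.000337). None of Smad2, Smad3, Smad4, Smad7 and Id1 was called. The share called in the TGF-beta and BMP list was 33.3%, beside the same 25.9%.

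Of 18 measured genes of the IGF axis and of imprinted loci 4 were higher and 3 lower (1 to 3 higher and 2 lower). This was 38.9% called, beside 25.9% of all genes tested. Peg10, an imprinted gene derived from a retrotransposon, was at 209 and 205 CPM (siJunb) against 93.1 and 92.4 CPM (siH1f0), a log2 change of -1.16 ± 0.087 (SE, adjusted p = 6.14e-05), and siControl was near siH1f0 at 76.5 and 94.5 CPM. Igf2bp2, which encodes an RNA-binding protein, was at 326 and 319.9 CPM (siJunb) against 239.6 and 239 CPM (siH1f0), a log2 change of -0.43 ± 0.050 (SE, adjusted p = 0.0005). Igfbp7 was higher by 0.44 (adjusted p = 0.00187). Of 15 integrins 2 were lower and 1 higher (20.0% called, under the 25.9% of all genes). The one whose call held without each compared library was Itga3. Itga3, the laminin receptor chain, was at 146 and 139.98 CPM (siJunb) against 73.7 and 72.1 CPM (siH1f0), a log2 change of -0.97 ± 0.063 (SE, adjusted p = 3.18e-05). Of 13 genes of the RNA interference machinery, 2 were lower and 0 higher (15.4% called, under the 25.9% of all genes). Ago1 was lower by 0.27 and Tnrc6c by 0.18, both lost without any 1 compared library (adjusted p up to 0.145 and 0.213).

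**Figure D5:**
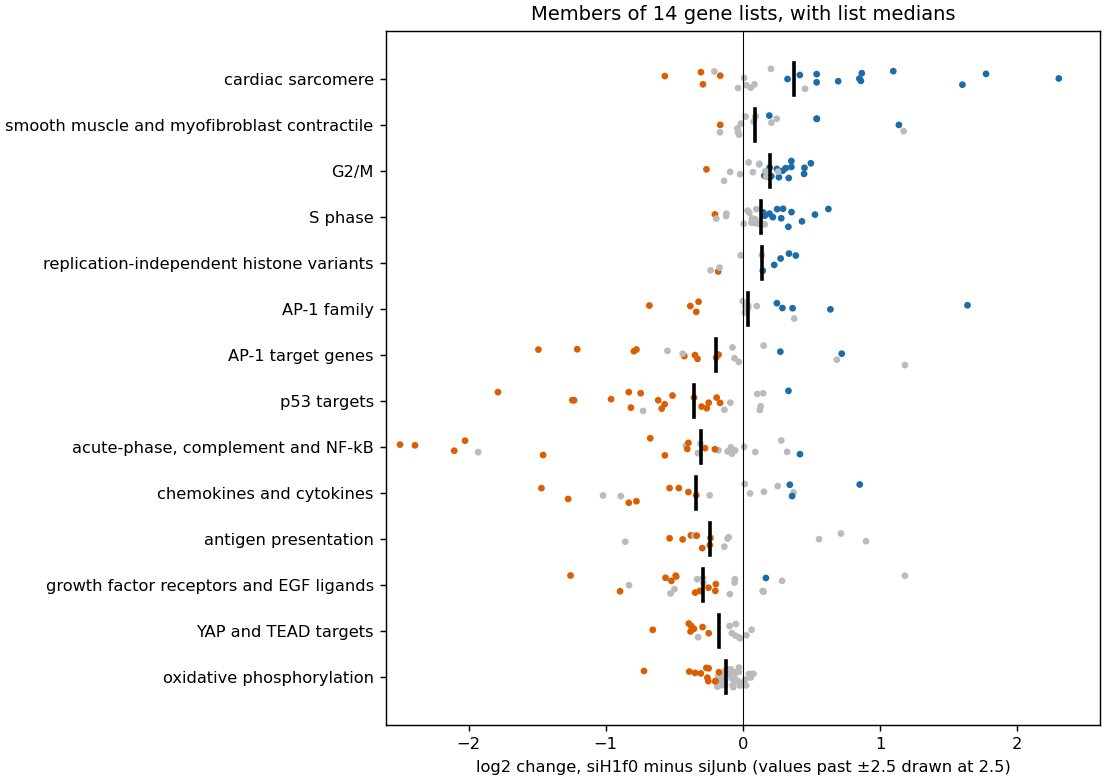
Each dot is a measured gene of 1 of 14 lists, at its log2 change, siH1f0 minus siJunb, on the x axis, blue where called higher, orange where called lower and grey where not called, with values past 2.5 in size drawn at 2.5. Black bars mark list medians, from 0.37 for the cardiac sarcomere to -0.36 for p53 targets.

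Markers of other cell types were read in the same way. Summed over all listed markers, skeletal muscle genes were at 2.38 and 2.32 CPM (siJunb) against 2.42 and 3.12 CPM (siH1f0), with Myod1, Myog and Myf5 at 0 counts in the 4 libraries. Endothelial markers summed to 19.3 and 20.5 against 14.5 and 13.6 CPM, mostly Flt1, and leukocyte markers to 16.1 and 16.4 against 12.1 and 13.6 CPM, mostly Cd14, with Ptprc at 0 in each. Neuronal markers summed to 18.3 and 17.5 against 20.9 and 19.7 CPM, and cartilage and bone markers to 50.3 in both siJunb libraries against 57.8 and 55.1 CPM. Pluripotency markers summed to 102.0 and 100.0 against 89.8 and 88.3 CPM, mostly Klf4, with Pou5f1 at 0, and epithelial markers to 3.25 and 3.14 against 3.68 and 3.47 CPM, below siControl at 9.17 and 9.06 CPM. Adipocyte markers differed most, at 29.0 and 28.3 against 45.0 and 43.8 CPM, through Lpl, lipoprotein lipase, at 23.5 and 23.4 CPM (siJunb) against 39.6 and 39.2 CPM (siH1f0), a log2 change of 0.75 ± 0.057 (SE, adjusted p = 6.44e-05), while Adipoq was at 0. A list of RNAs read as a check on poly(A) selection held mostly RNAs without tails, with Lars2, the mRNA of mitochondrial leucyl-tRNA synthetase, added. Rn45s, the ribosomal RNA precursor, was at 6684 and 5081 CPM (siJunb) against 3040.3 and 3423 CPM (siH1f0), a log2 change of -0.86 that did not pass (adjusted p = 0.138), with siControl at 18759 and 6286 CPM. Of the 7 measured RNAs without tails none was called, and Lars2 was called lower at 711 and 638 CPM (siJunb) against 336 and 367 CPM (siH1f0), a call lost without any 1 compared library (adjusted p up to 0.153) and with DESeq2. With the 4 compared libraries alone, 6 of the 8 measured members of the list passed as lower in siH1f0, with a median of -0.935. The summed CPM of the list was 7436 and 5750 (siJunb) against 3393 and 3810 (siH1f0), and 20150 and 6962 in siControl. The part of these RNAs in the differences between the knockdowns was not tested.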

How the data were processed

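Poly(A) RNA was sequenced from 6 libraries. Per the submitters' processing notes, HISAT2, Subread and featureCounts and the build mm10 were used, with versions and the strand setting not given in the sources used here. The deposited values are raw counts per gene in each library, and a deposited column of gene length in bases, its unit other than an expression unit, was not used to scale them. From the counts, edgeR 4.0.16 (with limma 3.58.1, R 4.3.3) fitted the 6 libraries together on group alone, with TMM scaling factors of 0.979 to 1.02 and 3 residual degrees of freedom. filterByExpr kept 13427 of 24516 genes, and glmQLFTest gave siH1f0 minus siJunb with Benjamini-Hochberg adjusted p under 0.05 as a call. CPM are per TMM-scaled total, and each SE belongs to the log2 change. Symbols of 23591 genes matched the RefSeq table of GRCm38.p6, which supplied coordinates and promoters.

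Named genes are the targets, the induced factors, the 12 highest and 12 lowest called genes with a mean of at least 5 CPM and separate groups (Gm, Rik and bare Ensembl symbols left out), and in each list the 5 called members of smallest p. Further list members, called or not, were added as examples after their values were seen. The comparison and the gene lists were chosen with earlier results of these data known. The labels do not say whether the numbers of the replicates pair the libraries, and the main fit did not pair them. The labels call the libraries biological replicates without naming separate cultures, so p-values may measure technical spread. Alternatives were other scalings, other count filters, DESeq2 1.42.0, limma-voom, the 4 compared libraries alone, a replicate block and leaving out each library. The fit was tested on simulated data. The simulation gave every group the same spread per gene, unlike the siControl pair here. It therefore cannot speak to how the calls moved when libraries were left out. Without a stated strand setting, reads of overlapping genes cannot be told apart. Some genes that met the naming rule are not reported here.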

Additional observations from a re-analysis of the deposited data

How the results depend on the processing

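The count of calls was 3489 with RLE size factors, 3562 with total counts only, 3461 with DESeq2, 3296 with limma-voom and 3265 with a mean of at least 5 CPM required. It was 4290 with no count filter and 6416 (3073 higher, 3343 lower) with the 4 compared libraries alone, which shared 3480 calls with the fit of all 6. Leaving out each library in turn gave 1304 to 6435 calls, 567 to 3082 higher and 701 to 3425 lower. At 1.5-fold or more these ranges were 209 to 443 higher and 240 to 353 lower. With at least 5 CPM required, 10169 genes were tested, and 173 were higher and 188 lower by 1.5-fold or more. The cause of any of these shifts was not tested. With a replicate block 2919 genes were called (1372 higher, 1547 lower), 2889 of them shared with the fit without it. The deviations of same-numbered libraries from their group means were little correlated, at 0.0627, 0.0477 and -0.0412. The labels do not say whether the numbers pair the libraries. The log2 change of Mef2c reversed to -0.0503 without siH1f0 1 and was 0.1008 without siH1f0 2. Of 2453 values for named genes under the alternatives, 2222 kept direction and side of the threshold, 224 lost the call, 6 gained it and 1 reversed, and 113 of 173 named called genes passed in every fit that left out 1 library. The median count per tested gene was 1484 to 2682, and with 2 libraries a group the spread is estimated from few libraries, the siControl pair among them. Which list members were called under each alternative varied, with 895 of 1260 list counts within 1.5 times of the reported ones.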

Other observations

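Genes below the 5 CPM minimum or with provisional names held some of the steepest differences, and those given here were chosen after their values were seen. 0610012G03Rik was at 2.16 and 1.80 CPM (siJunb) against 14.3 and 14.4 CPM (siH1f0), a log2 change of 2.85 ± 0.11 (SE, adjusted p = 3e-06), with siControl near siH1f0 at 16.3 and 15.1 CPM. Ptpn22, a phosphatase that restrains immune receptor signalling, was at 0.591 and 0.649 CPM (siJunb) against 3.47 and 2.77 CPM (siH1f0), a log2 change of 2.33 ± 0.21 (SE, adjusted p = 0.000181), with siControl between at 1.97 and 1.70 CPM. Fam212b was at 5.91 and 5.32 CPM (siJunb) against 1.08 and 1.63 CPM (siH1f0), a log2 change of -2.04 ± 0.18 (SE, adjusted p = 0.00016), with siControl near siJunb at 5.22 and 4.86 CPM. In these 3 genes the knockdowns did not overlap, and the group that stood alone was siJunb for the first and siH1f0 for the last.

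The Wnt ligand gene Wnt7a was at 1.66 and 1.36 CPM (siJunb) against 0.349 and 0.194 CPM (siH1f0), a log2 change of -2.49 ± 0.38 (SE, adjusted p = 0.00209). Tcf23, a helix-loop-helix factor gene, was at 2.68 and 2.45 CPM (siJunb) against 0.631 and 0.539 CPM (siH1f0), a log2 change of -2.14 ± 0.25 (SE, adjusted p = 0.000606), and siControl was with siH1f0 at 0.552 and 0.835 CPM. The channel family gene Ano3 was at 1.26 and 1.23 CPM (siJunb) against 0.166 and 0.269 CPM (siH1f0), a log2 change of -2.496 ± 0.41 (SE, adjusted p = 0.00306), and siControl was with siJunb at 0.782 and 1.47 CPM. All 3 were lower in siH1f0 at levels where few counts stand behind each value.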
